A study of Mus musculus with 11 samples.

Results

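Mgp, Dpt, Pi16, Islr and Ccdc80 are 5 genes of stromal fibroblasts whose signals in mouse JB6 cells were followed between attached monolayers and colonies in soft agar. They were taken as every probe set annotated to exactly one of these symbols, which gave 7 probe sets for 5 of the 12393 genes measured. The working name of the group is genes induced in colonies, and they were selected on the colony changes of both lines and on the RT101 level beside the bFGF-JB6 level, so their values are described here with no test. The name holds in both lines for Mgp, Dpt and Islr. Pi16 was higher in RT101 colonies than in RT101 monolayers, while its bFGF-JB6 colony signals lay below the monolayer signals, and Ccdc80 was higher mainly in bFGF-JB6 colonies.

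Messenger RNA was measured on 11 Affymetrix arrays, 1 sample each, in 4 groups. RT101 cells, a tumorigenic variant of the epidermis-derived JB6 line that was left untreated, gave 3 arrays of colonies taken from soft agar on day 7 and 2 arrays of monolayer. The parental JB6 clone 41-5A, given basic fibroblast growth factor (bFGF) according to the labels, gave 3 arrays of colonies, with 10 ng/ml bFGF and the same day 7 harvest, and 3 arrays of monolayer. No dose or time is given for the monolayers. Line and growth factor cannot be told apart in any comparison of RT101 with bFGF-JB6, and each line is a single line or clone. The study set colonies beside monolayers to look for effects shared by reversible and irreversible growth in agar. Whether replicate arrays stand for separate cultures is not stated, so p-values rest on a spread between samples that may be technical.

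These genes encode proteins of the extracellular matrix and the cell surface that are typical of resting connective tissue. Mgp encodes matrix Gla protein, a secreted vitamin K-dependent protein that inhibits calcification and binds bone morphogenetic proteins (BMPs). Dpt encodes dermatopontin, a small matrix protein of skin that binds decorin and TGF-beta and helps collagen fibrils form. Pi16 encodes peptidase inhibitor 16, a membrane-anchored member of the CAP family that marks a fibroblast population around vessels in many mouse tissues. Islr, also called meflin, encodes a membrane-anchored protein with leucine-rich repeats found on mesenchymal stromal cells. Ccdc80 encodes a secreted matrix protein that is also called DRO1, for down-regulated by oncogenes, after work in rat cells.

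RefSeq promoter windows (mouse build GRCm38.p6) were given for 3 of the 5 genes, Dpt, Islr and Pi16, and are shown because Dpt and Islr moved in the same direction in both lines. Each line below runs 5′ to 3′ on the gene's own strand, from 90 bases before to 30 bases after the annotated start, which is counted as position 1. Capitals mark matches to 4 motifs, and the longest run of letters shared by Dpt and Islr.
Dpt (chr1:164796573-164796692, plus strand): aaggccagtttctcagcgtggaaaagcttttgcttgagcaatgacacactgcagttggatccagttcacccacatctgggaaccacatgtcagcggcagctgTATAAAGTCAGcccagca
Islr (chr9:58158525-58158644, minus strand): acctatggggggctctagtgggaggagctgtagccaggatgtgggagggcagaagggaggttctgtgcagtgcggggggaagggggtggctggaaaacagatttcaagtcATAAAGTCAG
Pi16 (chr17:29318792-29318911, plus strand): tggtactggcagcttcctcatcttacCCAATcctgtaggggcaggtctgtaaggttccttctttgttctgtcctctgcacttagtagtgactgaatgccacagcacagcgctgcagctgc

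The motifs searched on both strands were the TATA box (TATAAA), the CCAAT box (CCAAT), the AP-1 site (TGANTCA) and a TEAD site (GGAATG), which occur in 5.95%, 20.2%, 3.13% and 5.63% of the 32851 RefSeq windows of this length. Dpt held TATAAA at positions 13 to 18, downstream of its annotated start, and Pi16 held CCAAT at positions -64 to -60. Islr held none of the 4. The windows of Dpt and Islr shared the 10 letters ATAAAGTCAG, at positions 14 to 23 in Dpt, where they overlap the TATA box, and at 21 to 30 in Islr. That run occurs on either strand in 12 of the 32851 windows (0.0365%), which belong to 11 genes. It was found by comparing these sequences with each other after they had been read, and a match of letters is not a binding site.

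Mgp had log2 signals of 9.29, 9.21 and 9.13 in RT101 colonies, against 4.13 and 3.38 in RT101 monolayers. In bFGF-JB6 cells the same probe set (1448416_at) gave 10.97, 10.95 and 10.58 in colonies, against 6.34, 6.21 and 6.17 in monolayers. The 4 groups did not overlap, and their order from the highest was bFGF-JB6 colonies, RT101 colonies, bFGF-JB6 monolayer and RT101 monolayer. Colonies stood above monolayers by 5.46 on the log2 scale in RT101 (SE 0.18, 43.9-fold) and by 4.59 in bFGF-JB6 (SE 0.16, 24.1-fold). The RT101 monolayer mean of 3.75 ± 0.53 (SD, n = 2) lay just below the lower quartiles of the arrays, which ran from 3.78 to 3.91, and folds that start there are compressed. The RT101 monolayer arrays were also the least alike for this gene, and the RT101 colony change was 5.84 without replicate 1 and 5.08 without replicate 2 of that group. In such bulk samples, fewer cells of a type and less RNA per cell cannot be told apart.

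Dpt gave 9.52, 9.54 and 9.46 in RT101 colonies, against 4.05 and 3.88 in RT101 monolayers. In bFGF-JB6 cells it gave 10.01, 9.76 and 10.07 in colonies, against 6.58, 6.38 and 6.43 in monolayers (probe set 1418511_at). The order of the groups was that of Mgp, again with no overlap. The colony difference was 5.54 in RT101 (SE 0.11), close to that of Mgp, and 3.48 in bFGF-JB6 (SE 0.10). Without RT101 monolayer replicate 1 the RT101 difference was 5.63 for Dpt, below the 5.84 of Mgp. The RT101 colony mean of 9.51 ± 0.05 (SD, n = 3) stood 8.25-fold above the bFGF-JB6 monolayer mean of 6.46 ± 0.11 (SD, n = 3).

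Pi16 gave 8.86, 8.74 and 8.80 in RT101 colonies, against 4.17 and 4.23 in RT101 monolayers (probe set 1453839_a_at). In bFGF-JB6 cells it gave 9.0, 8.92 and 9.32 in colonies, against 9.65, 9.52 and 9.63 in monolayers. Thus the gene was high in 3 of the 4 groups and low, near the arrays' lower quartiles, in RT101 monolayers. The RT101 difference was 4.60 (SE 0.11, 24.3-fold), while the bFGF-JB6 difference was -0.52 (SE 0.10), with every colony array below every monolayer array. The order was bFGF-JB6 monolayer, bFGF-JB6 colonies, RT101 colonies and RT101 monolayer, and the highest RT101 colony array (8.86) was close to the lowest bFGF-JB6 colony array (8.92). Another Pi16 probe set, 1422026_at, was dim throughout, at 3.95 to 5.03, and gave the same directions with smaller differences of 0.39 in RT101 and -0.43 in bFGF-JB6.

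Islr gave 7.72, 7.61 and 7.63 in RT101 colonies, against 4.24 and 3.91 in RT101 monolayers. In bFGF-JB6 cells its probe set 1418450_at gave 8.57, 8.77 and 8.33 in colonies, against 7.14, 7.00 and 7.07 in monolayers. The groups kept the order seen for Mgp and Dpt without overlap, but RT101 colonies exceeded bFGF-JB6 monolayers by only 1.5-fold, against 7.83-fold for Mgp. The colony differences were 3.58 in RT101 (SE 0.13) and 1.49 in bFGF-JB6 (SE 0.12).

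Ccdc80 gave 4.95, 4.90 and 4.76 in RT101 colonies, against 4.41 and 4.22 in RT101 monolayers (probe set 1424186_at). In bFGF-JB6 cells it gave 8.36, 8.02 and 8.59 in colonies, against 5.76, 5.70 and 5.67 in monolayers. On this probe set both RT101 groups lay below both bFGF-JB6 groups. The difference in RT101 was 0.55 (SE 0.14) and ranked 1189 among 12393 genes, against 2.62 (SE 0.12) and rank 22 in bFGF-JB6. The other Ccdc80 probe set, 1424187_at, gave 5.17, 4.82 and 4.92 in RT101 colonies, against 5.37 and 4.73 in RT101 monolayers, so these groups overlapped and the small RT101 difference rests on 1 of 2 probe sets. On that probe set bFGF-JB6 colonies still stood above their monolayers, by 1.28, but both RT101 groups overlapped bFGF-JB6 monolayers, at 5.16, 5.45 and 5.35.

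**Figure D1:**
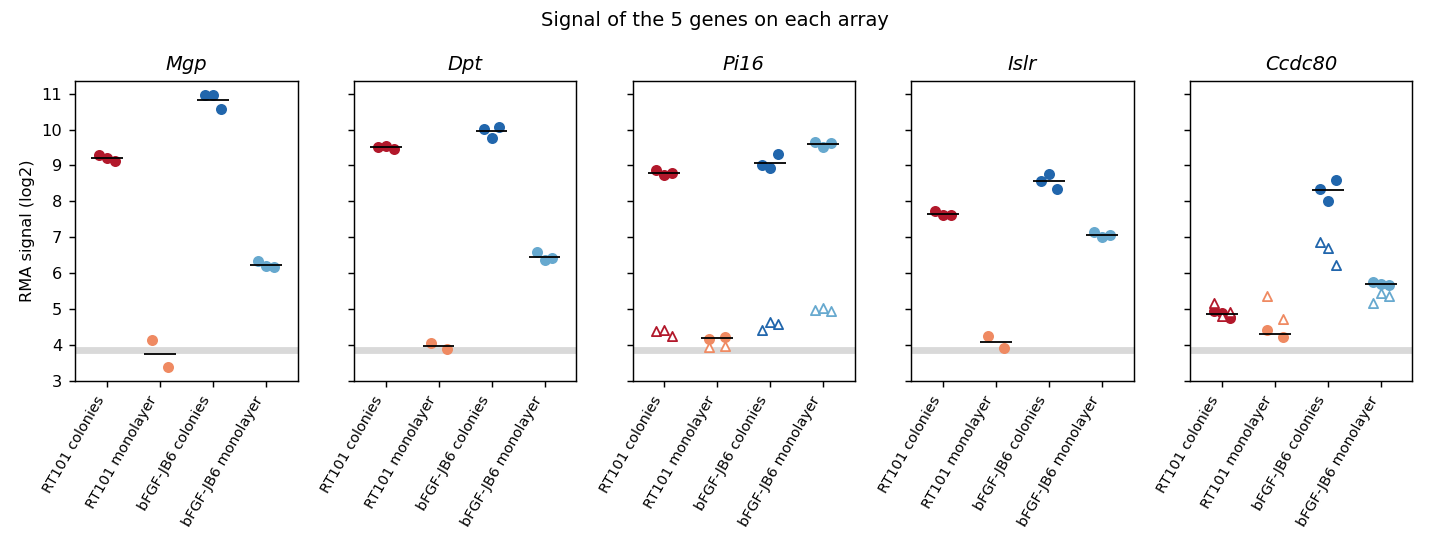
Log2 RMA signal of the 5 genes on each of the 11 arrays, by group. Filled circles are the brightest probe set of a gene with the group mean as a line, open triangles are other probe sets, and the grey band is the range of the arrays' lower quartiles (3.78 to 3.91). RT101 monolayer arrays lie at the bottom for all 5 brightest probe sets, and Pi16 is high in the other 3 groups.

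Counts across the group use the brightest probe set of each gene. In RT101 colonies 4 of 5 genes were at least 2-fold higher than in RT101 monolayers, where 3.41% of all genes were. In bFGF-JB6 colonies 4 of 5 were at least 2-fold higher, against 1.64% of all genes, and 3 of 5 (Mgp, Dpt and Islr) met this in both lines, as did 0.476% of all genes. These counts follow from how the genes were chosen. The median of the 5 differences was 4.60 in RT101 and 2.62 in bFGF-JB6, against -0.01 and 0.02 over all genes. On these probe sets both RT101 monolayer arrays lay below the other 9 arrays for all 5 genes, a pattern that 14.4% of all genes had. The colony arrays lay above all monolayer arrays for 5 of 5 genes in RT101 (27.9% of all genes) and for 4 of 5 in bFGF-JB6 (18.7%), where Pi16 lay below (19.1%). On the other Ccdc80 probe set RT101 colony and monolayer arrays overlapped, so neither RT101 pattern held there.

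**Figure D2:**
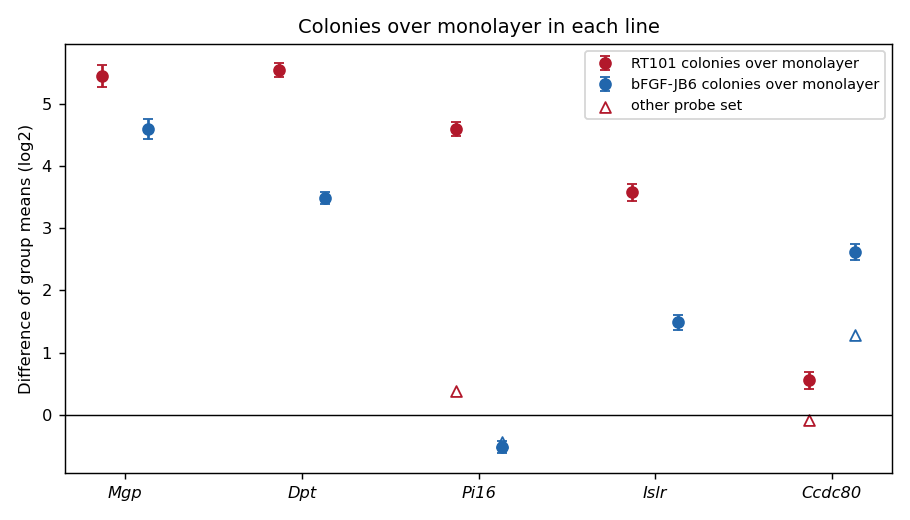
Difference between colony and monolayer means (log2) for each gene, in RT101 and in bFGF-JB6 cells. Circles with SE bars are the brightest probe sets and open triangles are other probe sets. Pi16 is at 4.60 in RT101 and -0.52 in bFGF-JB6, and Ccdc80 at 0.55 and 2.62.

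RT101 and bFGF-JB6 cells were then set beside each other in the same growth state. The rule for these genes sets the RT101 level beside the bFGF-JB6 level and rests on the same group means, so these differences too are described with no test. In monolayers all 5 genes had lower means in RT101. On the brightest probe sets their RT101 arrays lay below all bFGF-JB6 monolayer arrays, as for 27.7% of all genes. Pi16 differed most, at -5.40 (SE 0.11), so that the RT101 monolayer signal was 2.37% of the bFGF-JB6 monolayer signal on the linear scale. Islr differed by -2.99 (SE 0.13), Dpt by -2.50 (SE 0.11) and Mgp by -2.49 (SE 0.18). Their RT101 signals were 12.6%, 17.7% and 17.8% of those in bFGF-JB6 monolayers. Ccdc80 differed least, at -1.39 (SE 0.14), or 38.1%. On its other probe set the difference was -0.27, or 82.8%, and the arrays overlapped. The dim Pi16 probe set gave -1.02, with no overlap. The RT101 means of 3.75 to 4.32 lie close to the lower quartiles, where array signals are compressed.

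In colonies the means of the same genes were again lower in RT101, with no overlap of arrays, as for 24.3% of all genes. Dpt differed by -0.44 (SE 0.10), which left RT101 colonies at 73.8% of the bFGF-JB6 colony signal. Islr was at -0.90 (SE 0.12), or 53.5%, and Mgp at -1.62 (SE 0.16), or 32.5%. Ccdc80, at -3.46 (SE 0.12), stood at 9.12% of the bFGF-JB6 colony signal, and its other probe set at 32.2%, also without overlap. Pi16, at -0.28 (SE 0.10), stood at 82.3%. That small difference was -0.16 without bFGF-JB6 colonies replicate 3.

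Set side by side, the gap between lines was smaller in colonies than in monolayers for Pi16 (-0.28 and -5.40), Dpt (-0.44 and -2.50), Islr (-0.90 and -2.99) and Mgp (-1.62 and -2.49), and larger for Ccdc80 (-3.46 and -1.39). The change in the gap was not tested. Levels in RT101 colonies exceeded those in attached bFGF-JB6 cells for Dpt (8.25-fold), Mgp (7.83-fold) and Islr (1.5-fold). They lay below them for Pi16 (57.4%) and Ccdc80 (55.9%), with no overlap of arrays in any of the 5 on the brightest probe set. The other Ccdc80 probe set overlapped there.

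**Figure D3:**
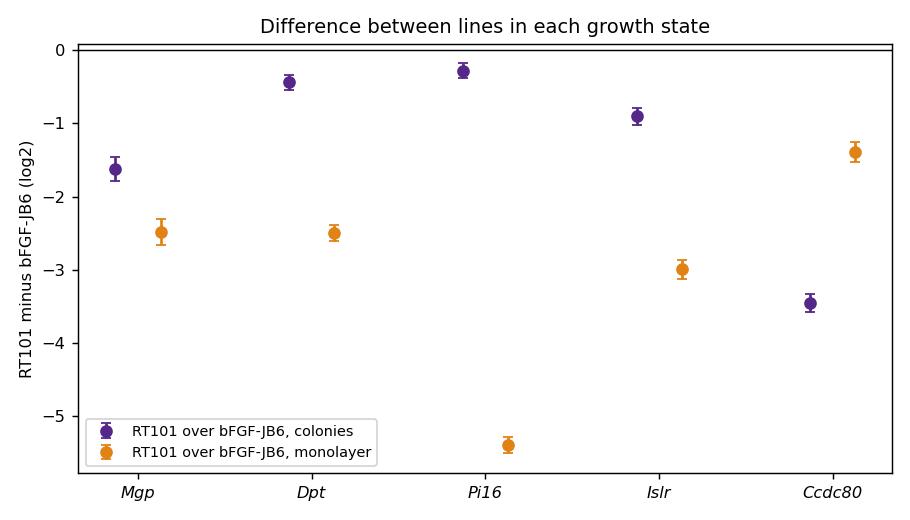
RT101 minus bFGF-JB6 log2 signal for each gene, in colonies and in monolayers. Points are differences of group means on the brightest probe set, with SE bars. All lie below 0, with Pi16 at -0.28 in colonies and -5.40 in monolayers, and Ccdc80 at -3.46 and -1.39.

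The profiles of the 5 genes over the 4 group means were compared after each gene was centred on its own average. Mgp and Dpt were the most alike, with a root mean square difference of 0.49 on the log2 scale, and the least alike pair was Mgp and Ccdc80, at 1.88. Among 2866 other genes whose group means spanned at least 1 log2 unit, those nearest to Mgp were Dpt, the acute-phase gene Saa3 (1.13) and the chemokine gene Ccl8 (1.13). Dpt was nearest to Mgp, Saa3 (0.97) and Islr (1.02). Nearest to Pi16 were Lcn2, a lipocalin that binds bacterial siderophores (0.52), Synpo, an actin-associated protein (0.83), and Islr (0.91). Lcn2 stood at 9.75 in RT101 colonies and 6.08 in RT101 monolayers, with 11.37 in bFGF-JB6 colonies and 11.76 in bFGF-JB6 monolayers. Nearest to Islr were Capn6 (0.51), of the calpain family, the complement protease gene C1s1 (0.51) and Ltbp2, a latent TGF-beta binding protein family member of elastic fibres (0.52). Nearest to Ccdc80 were Aspa, an aspartoacylase (0.25), Srpx2 (0.33) and Edil3, a secreted integrin ligand (0.33). Srpx2 encodes a sushi-repeat protein and was on the list of protein relatives. It stood at 5.30 in RT101 colonies and 4.34 in RT101 monolayers, with 7.83 in bFGF-JB6 colonies and 5.63 in bFGF-JB6 monolayers. With 4 points a gene, such likeness is a description only.

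Other genes of the same cells and processes were taken from 12 lists and tested with limma. Of all genes, 17.0% were called higher and 15.4% lower in RT101 colonies, and 14.1% and 15.3% in bFGF-JB6 colonies. The lists were chosen with earlier results of these data known, and the called genes named from them had the largest changes. Their p-values are therefore not independent of that choice. Of 23 measured markers of adventitial and widely shared fibroblasts, 7 rose and 2 fell in RT101 colonies (median 0.09). In bFGF-JB6 colonies 4 rose and 6 fell (median -0.02). In RT101 colonies the actin-severing gene Gsn rose by 1.95 (limma adjusted p = 1.19e-07), the receptor gene Pdgfra by 1.20 and Igfbp6, which binds insulin-like growth factor, by 1.0. In bFGF-JB6 colonies Ackr3, a scavenging chemokine receptor, fell by 2.33 (limma adjusted p = 2.49e-09), while the fibulin gene Fbln1 rose by 1.23. Dpp4, Cd55, Clec3b and Penk, which mark the same adventitial cells as Pi16, lay below the lower quartile on all 11 arrays. Other markers of the list did not: Cd34 stood at 10.45 in RT101 colonies and 10.90 in RT101 monolayers. In bFGF-JB6 cells Cd34 stood at 8.77 in colonies and 9.12 in monolayers. It was thus higher in RT101, by 1.68 in colonies and 1.78 in monolayers, opposite to the members. Between lines, limma called 22.7% of all genes higher and 20.7% lower in RT101 in colonies, and 23.2% and 21.2% in monolayers. Of the 23 markers it called 6 higher and 8 lower in RT101 in colonies, and 1 and 9 in monolayers. The number that fell in RT101 colonies was 4 without bFGF-JB6 colonies replicate 3 and 1 without RT101 monolayer replicate 2.

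Small leucine-rich proteoglycans, the matrix family of the Dpt partner decorin, moved unevenly. In RT101 colonies 5 of 11 rose, and 0 fell by limma, with 0 also at an unadjusted p of 0.05. In bFGF-JB6 colonies 3 rose and 1 fell. Aspn, asporin, rose by 5.51 in RT101 colonies (SE 0.20, limma adjusted p = 2.98e-10) and by 1.37 in bFGF-JB6 colonies (SE 0.18, 5.52e-05), in both from monolayer signals below the lower quartile (2.77 and 2.86). Dcn, decorin itself, rose by 1.34 in RT101 colonies (limma adjusted p = 4.93e-07) and fell by 0.97 in bFGF-JB6 colonies (5.13e-06). Its levels, 5.84 in RT101 colonies and 4.51 in RT101 monolayers, were far below the 9.66 of bFGF-JB6 colonies and the 10.63 of bFGF-JB6 monolayers. Dcn thus had the same directions as Pi16, but RT101 colonies were at 0.0709 times the bFGF-JB6 colony level (log2 difference -3.82, limma adjusted p = 2.02e-12), where 20.7% of all genes were called lower. Ogn, osteoglycin, rose by 1.59 in RT101 colonies and was higher there than in bFGF-JB6 colonies by 4.94 (limma adjusted p = 3.7e-10), opposite to all 5 genes.

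Of 14 general mesenchymal genes, 7 rose and 1 fell in RT101 colonies (median 0.43), and 5 rose and 4 fell in bFGF-JB6 colonies (median 0.04). The receptor gene Pdgfrb rose by 3.07 in RT101 colonies (limma adjusted p = 4.67e-10), the fibrillar collagen gene Col3a1 by 2.84 and fibronectin, Fn1, by 1.25. Fn1 also rose in bFGF-JB6 colonies, by 0.92, while Sparc and Prrx1, among the 4 that fell, were at -0.59 and -0.57. In monolayers 8 of the 14 were lower in RT101 than in bFGF-JB6 cells (median -0.47), where 21.2% of all genes were called lower, and 0 were higher by limma, with 0 also at an unadjusted p of 0.05. Without RT101 monolayer replicate 2, 2 were higher, and 1 was without bFGF-JB6 monolayer replicate 1. In bFGF-JB6 colonies the number that rose was 3 without bFGF-JB6 monolayer replicate 2, and the number that fell was 2 without replicate 3 of that group. The mean log2 signal of these 14 genes was 9.19 to 9.28 in RT101 colonies and 8.56 to 8.58 in RT101 monolayers, with 9.19 to 9.40 in bFGF-JB6 colonies and 9.21 to 9.34 in bFGF-JB6 monolayers.

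Among partners of Mgp, 12 genes of mineralisation and the vitamin K cycle had 5 rises and 1 fall in RT101 colonies. Ank, a pyrophosphate transport gene, rose by 2.12 there (limma adjusted p = 3.17e-09) and Pros1, the vitamin K-dependent protein S, by 1.05, while the phosphate transporter gene Slc20a1 fell by 1.18. In bFGF-JB6 colonies 1 of the 12 fell and 0 rose by limma, against 2 at an unadjusted p of 0.05. The fall was that of Slc20a2, at -0.71 (limma adjusted p = 0.000285), and 1 rose without bFGF-JB6 monolayer replicate 1. Of 22 BMP pathway genes, 7 rose and 1 fell in RT101 colonies, and 4 rose and 3 fell in bFGF-JB6 colonies. The BMP target genes Id1 (2.39), Id3 (1.88) and Id2 (1.84) led the RT101 rises (limma adjusted p 9.18e-08 to 1.4e-07). In bFGF-JB6 colonies Fst, follistatin, which binds activins and BMPs, fell by 2.52 and the BMP antagonist gene Grem1 by 0.80. The count that fell in RT101 colonies was 3 without RT101 monolayer replicate 1 and 2 without bFGF-JB6 colonies replicate 3. Of the 22, Bmp2, Bmp4, Bmp6, Bmpr1b, Smad9 and Nog lay below the lower quartile on every array.

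Of 15 genes of collagen fibril assembly and TGF-beta, 8 rose and 1 fell in RT101 colonies, and 7 rose and 2 fell in bFGF-JB6 colonies. Tnc, tenascin C, rose by 1.51 in RT101 colonies (limma adjusted p = 9e-08) and fell by 1.25 in bFGF-JB6 colonies (2.44e-07). Lox, a collagen cross-linking enzyme, rose by 3.06 and Postn, periostin, by 2.63 in bFGF-JB6 colonies. In RT101 colonies Lox was 4.81 log2 units below bFGF-JB6 colonies (limma adjusted p = 8.23e-10), as Ccdc80 was (-3.46). The number that fell in bFGF-JB6 colonies was 1 without bFGF-JB6 monolayer replicate 1 or without replicate 1 or 3 of bFGF-JB6 colonies. Of 12 contractile genes of myofibroblasts, 2 rose and 1 fell in RT101 colonies, and 3 rose and 1 fell in bFGF-JB6 colonies. The RT101 calls were not made without RT101 monolayer replicate 1, and 1 rose and 2 fell in bFGF-JB6 colonies without replicate 3 of either bFGF-JB6 group. Of 6 measured relatives of the members, 1 rose and 2 fell in RT101 colonies and 2 rose and 1 fell in bFGF-JB6 colonies. The RT101 number that rose was 2 without RT101 monolayer replicate 1, and the bFGF-JB6 number was 1 without bFGF-JB6 monolayer replicate 1. Srpx2 rose in both, by 0.96 and 2.20 (limma adjusted p 3.59e-06 and 5.31e-10). The CAP family gene Glipr1, a relative of Pi16, was lower in RT101 than in bFGF-JB6 cells in colonies (-6.66, limma adjusted p = 8.46e-13) and in monolayers (-6.14, 6.63e-12).

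**Figure D4:**
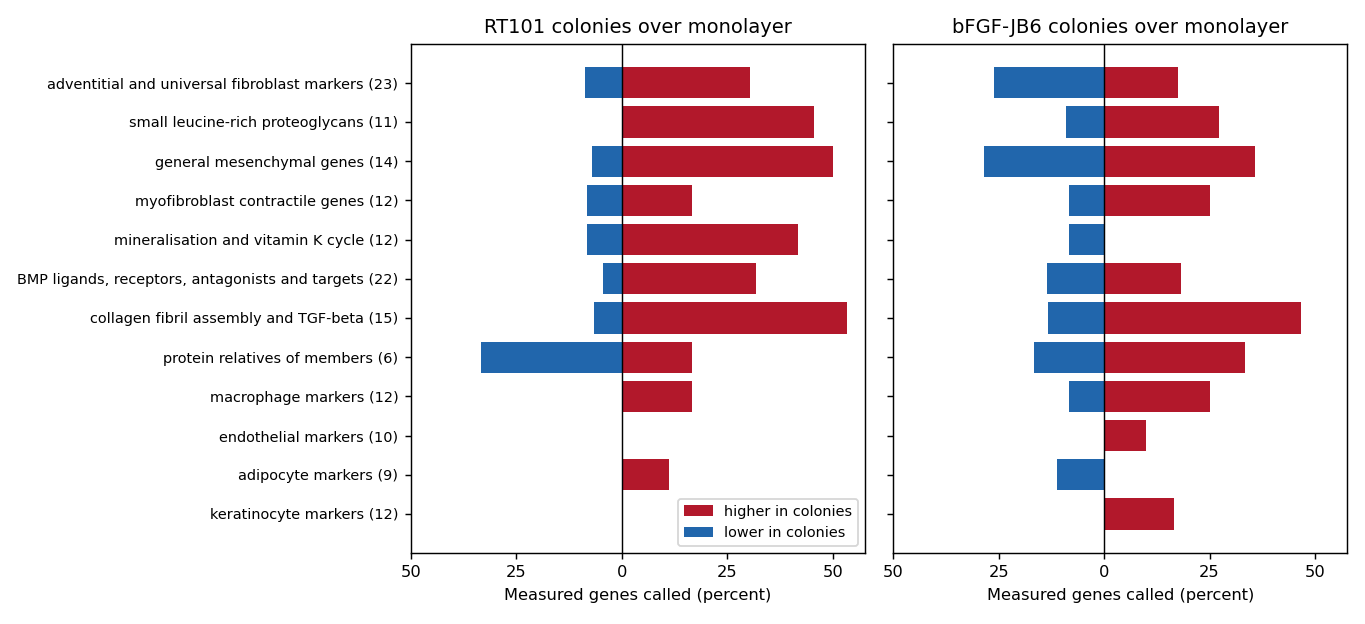
Share of the measured genes of each list that were called higher (right, red) or lower (left, blue) in colonies than in monolayers at a limma adjusted p of 0.05, in RT101 and in bFGF-JB6 cells. Numbers in brackets are the genes measured, without the 5 members, and small leucine-rich proteoglycans have 5 of 11 higher in RT101 and 3 of 11 in bFGF-JB6 colonies.

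Markers of other cells were read for the same arrays. The epidermal markers Trp63, Cdh1, Dsp and Epcam lay below the lower quartile on all 11 arrays. The mean of the 12 keratinocyte markers was 4.17 to 4.25 in RT101 colonies and 4.14 to 4.25 in RT101 monolayers, with 4.35 to 4.46 in bFGF-JB6 colonies and 4.26 to 4.31 in bFGF-JB6 monolayers. The series names these cells as skin cells, and 4 of the 12 epidermal markers were thus at the bottom of the scale on every array, as were Thy1 and Fap of the 14 general mesenchymal genes. Other epidermal markers were not: Krt10, a keratin gene, stood at 7.35 in bFGF-JB6 colonies and 6.81 in bFGF-JB6 monolayers. The share of all genes that lay below the lower quartile on every array was not counted. Such counts for this and the other lists therefore stand without a background. In RT101 colonies 0 keratinocyte and 0 endothelial markers were called by limma in either direction, with 0 each at an unadjusted p of 0.05. In bFGF-JB6 colonies 2 keratinocyte markers and 1 endothelial marker, Vwf (0.88), rose. Vwf (2.97 in monolayers, 3.85 in colonies) and the keratin gene Krt1 (3.49 and 3.85) rose near or below the lower quartiles. Of 10 endothelial markers, Pecam1, Cdh5, Tek, Emcn and Tie1 lay below the lower quartile on every array. Of 12 macrophage markers, 6 (Adgre1, Itgam, Fcgr1, Ptprc, Cd163 and Aif1) were below the lower quartile on every array. Cd14 was not, with group means from 7.30 in RT101 monolayers to 8.69 in bFGF-JB6 monolayers. Cd68 stood at 8.31 in bFGF-JB6 colonies and 3.54 in RT101 colonies. The mean of all 12 was 3.85 to 3.90 in RT101 colonies and 3.82 in RT101 monolayers, with 4.30 to 4.38 in bFGF-JB6 colonies and 4.07 to 4.19 in bFGF-JB6 monolayers. In bFGF-JB6 colonies 3 of them rose, led by Cd68 (1.86), and 1 fell, or 2 without replicate 3. In RT101 colonies 2 rose, or 1 without RT101 monolayer replicate 1 or RT101 colonies replicate 1. Of 9 adipocyte markers, Adipoq, Cebpa, Cidec, Lep and Cd36 were below the lower quartile throughout. Fabp4, a fatty acid binding protein gene, rose by 1.27 in RT101 colonies (limma adjusted p = 5.77e-05) and fell by 0.79 in bFGF-JB6 colonies (0.0014). It stood at 9.02 in bFGF-JB6 colonies and 9.81 in bFGF-JB6 monolayers, with 6.26 in RT101 colonies and 4.99 in RT101 monolayers. The part of these markers in the members' values was not tested.

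Array medians ran from 5.82 to 5.95 and arrays of a group correlated at 0.989 to 0.998 across 22626 probe sets. The Gapdh control probes read higher at the 3′ than at the 5′ end on 2 arrays, bFGF-JB6 monolayer replicate 1 (0.19) and bFGF-JB6 colonies replicate 3 (0.35), against -0.08 to -0.01 on the other 9 arrays. On the brightest probe sets, that colony array was the lowest of its group for Mgp and Islr and the highest for Dpt, Pi16 and Ccdc80. On the other Ccdc80 probe set it was the lowest, at 6.24, and on the dim Pi16 probe set it lay in the middle, at 4.58. Without both arrays the bFGF-JB6 colony differences were 4.77 for Mgp, 3.48 for Dpt, -0.61 for Pi16, 1.64 for Islr and 2.51 for Ccdc80, and the Pi16 difference between lines in colonies was -0.16.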

How the data were processed

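Total RNA of 11 samples was hybridised to Affymetrix mouse arrays. The authors deposited log2 signals for 22690 probe sets, which the submitters' processing notes credit to RMA; version and settings are not given in the sources used here. Of these, 64 were controls, 20380 carried 1 gene symbol in the platform annotation, 691 several and 1555 none. The brightest single-gene probe set stood for each of 12393 genes. Groups came from the sample labels. limma 3.58.1 in R 4.3.3 was fitted to all 11 arrays with group as the only term, and p-values were adjusted by Benjamini-Hochberg over all genes, with a threshold of 0.05. A fold change is the antilog of a difference between group means. Tables and figures were made with Python 3.11.15, pandas 2.3.3 and matplotlib 3.10.9. The number of arrays limits the precision.

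The members and the 12 gene lists were chosen with earlier results of these data known. Named genes were the 5 members, up to 4 called genes per list and comparison with the largest change, and the 3 genes nearest each member in profile. On simulated data with 200 changed genes, the RT101 colony comparison recovered 93% of changes of 1 log2 unit and 100% of 2, with 9 false among 202 calls. The simulated noise was normal and independent between arrays, and only 200 of 12393 genes changed, whereas 4013 were called in the data. These rates therefore need not hold for the data.

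Same-numbered RT101 and bFGF-JB6 colony arrays deviated together from their group means (correlations 0.32, 0.11 and 0.23). In the other comparisons the correlations of same-numbered arrays ran from -0.253 to 0.076. By title number, the arrays were thus taken to pair in colonies only, from the data. A fit with the replicate number as a block over all groups was an alternative. The RT101 monolayer arrays are numbered 1 and 2 in the titles but lettered B and C in the descriptions. A block by letter was therefore a further alternative. By letter, RT101 and bFGF-JB6 monolayer arrays correlated at 0.174 and 0.148, and RT101 colonies and monolayers at 0.15 and -0.134. Whether the monolayer arrays are paired is thus not settled. Other alternatives were the mean of probe sets, centring arrays on their medians, cyclic loess, a filter at the median level, a robust trended variance, only the groups compared, leaving out each array, and leaving out the 2 arrays with a raised Gapdh 3′ signal.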

Additional observations from a re-analysis of the deposited data

Results flagged for a closer look

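The following genes had colony arrays all above monolayer arrays in one line and all below in the other. Over all genes, RT101 colony arrays lay all above for 27.9% and all below for 28.2%. In bFGF-JB6 the shares were 18.7% and 19.1%. How many of all genes went opposite ways was not counted, so the genes below are not shown to be more than that share. The difference between the lines was not tested. Values are colony minus monolayer log2 differences, RT101 first. Among the members this was Pi16, at 4.60 in RT101 and -0.52 in bFGF-JB6. Among matrix and fibroblast genes it was Dcn (1.34 in RT101 and -0.97 in bFGF-JB6), Tnc (1.51 and -1.25), Igfbp6 (1.0 and -0.95), Pdgfra (1.20 and -0.20), Prrx1 (0.36 and -0.57) and Tgfb3 (1.45 and -0.30). Prelp, a small leucine-rich proteoglycan, went the other way, at -0.18 in RT101 and 0.95 in bFGF-JB6, as did Srpx (-0.43 and 0.16), a dim gene, and the macrophage marker Cd68 (-0.20 and 1.86). Ank, of pyrophosphate transport, was at 2.12 and -0.22, and the BMP antagonist gene Grem1 at 0.17 and -0.80. Fabp4 was at 1.27 and -0.79, the macrophage marker Mrc1 at 0.24 and -0.64, and the tropomyosin gene Tpm2 at 0.35 and -0.46.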

How the results depend on the processing

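No difference of the 5 genes reversed under the 20 alternatives, none of which used a gene's dimmer probe set alone. On the dimmer Ccdc80 probe set (1424187_at) the RT101 colony difference was -0.08, against 0.55 on the brightest. With probe sets averaged per gene, the colony difference in RT101 was 2.49 for Pi16 and 0.24 for Ccdc80, and that of Ccdc80 in bFGF-JB6 was 1.95. The averaged values include dimmer probe sets. Leaving out single arrays gave 5.08 to 5.84 for Mgp and 3.41 to 3.74 for Islr in RT101. The Pi16 difference between lines in colonies was -0.27 with median centring, -0.28 with only the groups compared and -0.16 without the 2 arrays of raised 3′ signal, and single arrays left out gave -0.36 to -0.16; the cause was not tested. With the replicate number as a block it was -0.28, and 5291 genes were called between lines in colonies, against 5372 without the block. Ccdc80 lay below the median level filter, which gave it no value. RT101 monolayers had 2 arrays, with signals near the bottom of the scale, which limits every RT101 colony difference.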
